A study of Mus musculus with 6 samples.

Results

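Necdin (Ndn), a growth-suppressing protein of the MAGE family, had a lower signal in Ercc1-deficient than in Ercc1-proficient LSK cells in all 3 litters, by each of the 5 Ndn probe sets past the filter on low signals. Of these 5, 1455792_x_at and 1415923_at read the lowest value, 30, in every deficient array. They could pass only through proficient arrays and had to be lower. The values below describe Ndn with 9 other imprinted genes, Grb10, Igf2r, Meg3, Cdkn1c, Gnas, Impact, Kcnq1ot1, Ube3a and Sgce. The 10 genes were chosen by symbol with the signals of these arrays in view, and Ndn was selected on its lower signal in deficient cells, so the genotype differences of all 10 are given as a description. They are 10 of 18193 genes with a probe set of their own on the array, and 47 of 45037 probe sets carry 1 of these symbols and no other.

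LSK cells are bone marrow cells that lack lineage markers and carry Sca-1 and c-Kit, among which blood stem cells and multipotent progenitors are found. Cells were sorted from F1 mice of a C57BL/6 by FVB/n cross. The 3 Ercc1-deficient arrays are of genotype -/d, with a knockout and a truncated allele of Ercc1, a DNA repair endonuclease subunit. Their Ercc1-proficient litter mates are +/+ in litters 1 and 2 and +/d in litter 3, so the control of litter 3 shares the truncated allele. The mice of litter 1 were 22 weeks old and those of litters 2 and 3 were 20 weeks old, so age and litter cannot be told apart. Pooling of mice is not stated in the sources used here, so each p-value reflects only the spread among these 6 samples. The comparison asked how gene expression differs in LSK cells when Ercc1 function is reduced.

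Imprinted genes are expressed mainly from the allele inherited from 1 parent, because DNA methylation laid down in the egg or the sperm makes the copies differ. The methylated copy can be the silent or the expressed one, and is expressed where methylation shuts off a non-coding RNA that would silence its neighbours. Many imprinted genes lie in clusters that share a methylated control region, and several act on growth in opposite ways. In blood stem cells, imprinted growth regulators are known for their link to quiescence: Cdkn1c encodes the cyclin-dependent kinase inhibitor p57, Igf2r removes the growth factor IGF2, and Ndn has been described as a p53-regulated factor of stem cell quiescence in mice.

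By position (RefSeq, GRCm38.p6), 4 of the 10 genes lie on chromosome 7: Ube3a at chr7:59228750-59310837, Ndn at chr7:62348277-62349928, Kcnq1ot1 at chr7:143213111-143296547 and Cdkn1c at chr7:143458339-143461059. The other 6 lie on chromosomes 2 (Gnas), 6 (Sgce), 11 (Grb10), 12 (Meg3), 17 (Igf2r) and 18 (Impact). Meg3 and Kcnq1ot1 are annotated as long non-coding RNAs and the other 8 as protein-coding.

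The promoters of Ndn and Grb10 are shown because these are the only members whose brightest probe set was lower in all 3 litters by a mean log2 difference of over 0.5. Each run is the 250 bases before the RefSeq start (GRCm38.p6), written 5′ to 3′ on the gene's strand, with every CpG, the dinucleotide that carries imprinting methylation, in capitals. Ndn lies on the plus strand at chr7:62348027-62348276, and the first Grb10 window on the minus strand at chr11:12037421-12037670.
Ndn: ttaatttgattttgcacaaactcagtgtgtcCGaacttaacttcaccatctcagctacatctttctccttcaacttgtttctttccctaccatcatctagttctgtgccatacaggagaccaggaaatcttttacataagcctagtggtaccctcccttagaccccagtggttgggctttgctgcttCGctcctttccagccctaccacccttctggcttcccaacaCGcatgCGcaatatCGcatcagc
Grb10: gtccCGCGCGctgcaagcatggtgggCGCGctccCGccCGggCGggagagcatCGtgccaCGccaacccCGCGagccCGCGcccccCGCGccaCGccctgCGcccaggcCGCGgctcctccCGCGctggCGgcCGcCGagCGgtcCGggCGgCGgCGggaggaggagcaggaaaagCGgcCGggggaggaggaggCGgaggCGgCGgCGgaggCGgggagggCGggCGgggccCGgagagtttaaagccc
The Ndn window holds 5 CpGs and has 47.2% G and C, while this Grb10 window holds 40 CpGs and has 81.2% G and C. Over all 32851 RefSeq promoter windows the median was 6 CpGs, 55.6% had at least 5 and 1.31% had at least 40. A second Grb10 window, at chr11:12027972-12028221, holds 8 CpGs. In all, 7 of the 10 genes had 12 such windows in the table, with 0 to 40 CpGs and a median of 17.5. The letters TGCCGC, searched on both strands as the core read by the imprint-keeping factor ZFP57, occurred in 1 of these 12 windows, a Meg3 window, and in 8.68% of all promoters.

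MAS5 signals have a floor at 30 in these data. Of the 47 member probe sets, 15 read 30 on every array, 32 were above it on at least 1 array and 11 were above it on every array. A probe set entered the fit if its mean signal was at or above the median of all probe sets, a bound of 32.6, and 25 of the 47 did, with at least 1 for each of the 10 genes. For 7 of these 25, in Ndn, Meg3, Cdkn1c and Sgce, every deficient array was at the floor, so they could pass only through the proficient arrays and had to be lower in deficient cells. No member probe set past the filter had all its proficient arrays at the floor.

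Ndn was measured by 8 probe sets. Probe set 1455792_x_at was at 30 in all 3 deficient arrays, against 133, 188 and 166 in proficient arrays of litters 1, 2 and 3. Probe set 1435383_x_at had signals of 45.3, 44.9 and 30 in deficient arrays, against 178, 224 and 198 in proficient arrays. The brightest, 1437853_x_at, had 57.2, 46.6 and 30 in deficient arrays, against 147, 356 and 166 in proficient arrays. In each case the 3 deficient arrays lay close to the floor and below every proficient array, with no overlap. Probe set 1435382_at showed the same order, with 49.2, 31.6 and 30 in deficient arrays against 120, 213 and 183 in proficient arrays. The dimmer 1415923_at was at 30 in all deficient arrays and at 34.2, 75.7 and 61.1 in proficient arrays.

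The deficient-over-proficient ratio of 1437853_x_at was 0.388 in litter 1 and 0.131 in litter 2, where both arrays were above the floor. In litter 3 the deficient array was at the floor by all 8 Ndn probe sets. Against the floor, 1455792_x_at was at least 5.35-fold higher in proficient arrays and 1415923_at at least 1.80-fold higher. The remaining probe sets carried little signal: 1438939_x_at was above the floor only in the proficient array of litter 2, at 40.1, and 1438978_x_at and 1456575_at were at 30 on all 6 arrays. Probe sets ending in x_at hold probes that can bind other transcripts, and 1435382_at and 1415923_at do not carry that mark. Both 1455792_x_at and 1415923_at could enter the fit only through the proficient arrays, so their direction was fixed. Binding of other transcripts was not tested.

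**Figure D1:**
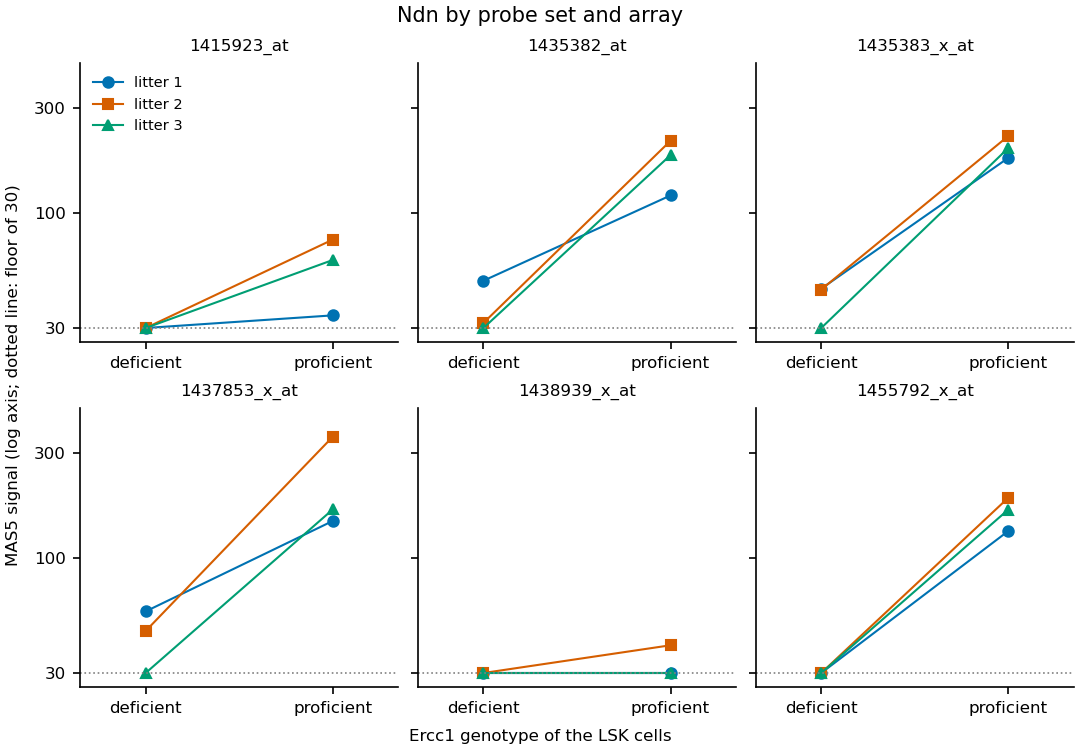
MAS5 signal on a log axis of the 6 Ndn probe sets that rose above the floor on at least 1 array, in Ercc1-deficient cells (left) and their Ercc1-proficient litter mates (right); each line joins 1 litter and the dotted line is the floor of 30. In 5 of the 6 probe sets every deficient array lies below every proficient array, and 1438939_x_at leaves the floor on 1 array, at 40.1.

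On the scale of log2(signal + 30), the difference between deficient and proficient litter mates was -1.69 for 1437853_x_at, with a standard error of 0.26, and it was -1.02, -2.33 and -1.71 in litters 1, 2 and 3. Its mean signal was 44.6 ± 13.7 in deficient and 223 ± 115 in proficient arrays (SD, n = 3 each). For the other 4 probe sets past the filter the mean difference ran between -1.72 and -0.51. With litter as a block in limma, 4 of the 5 passed an adjusted p of 0.05, with adjusted p-values between 0.000465 and 0.00188, and 1415923_at had 0.233. Over all 22519 probe sets tested, 0.52% were called lower and 0.315% higher in deficient cells by that rule. Without a litter term limma called 0% of the probe sets, Ndn included, with 579 at an unadjusted p under 0.05. Without any 1 of the litters the blocked fit also called none, and the adjusted p of 1437853_x_at lay between 0.557 and 0.718, while its log2 difference lay between -2.02 and -1.37. Since Ndn was selected on this contrast, nothing further is read from its calls.

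Levels of other genes moved with genotype in the same arrays. Of 8 measured stem cell markers, 5 were lower in the deficient array of all 3 litters and 1, Gata2, was higher. Over all probe sets tested these shares were 17% and 11.3%. Procr, Hlf and Prdm16 fell (limma with litter as a block, adjusted p = 0.0275, 0.0147 and 0.00598), against 0.52% of all probe sets tested called lower. The summed stem marker signal was 6414, 2898 and 2634 in deficient and 7431, 3344 and 3336 in proficient arrays of litters 1, 2 and 3, lower in each litter. Mecom, the brightest of these markers, weighed most in the sums and was lower only in litter 3. Of 8 measured markers of maturing granulocytes 6 were higher in all 3 litters, with sums of 5820 to 88131 in deficient and 497 to 18749 in proficient arrays. Of these, 5 were called higher, namely S100a8, S100a9, Camp, Ngp and Chil3, against 0.315% of all probe sets tested. Their adjusted p-values lay between 1.69e-06 and 9.87e-05 (limma with litter as a block). Stroma and endothelium markers, whose cells are known to express several imprinted genes, summed to 351 to 374 in deficient and 380 to 443 in proficient arrays over 8 genes. Pdgfrb was the brightest of them, while Col3a1 and Lepr were at the floor on all 6 arrays and Col1a1 and Cdh5 were above it on 1. The spike-in controls averaged a log2 signal of 12.8, 12.0 and 11.9 in deficient and 11.6, 11.9 and 11.7 in proficient arrays. The part of these in the lower Ndn signal was not tested, and in bulk samples fewer cells of a type and less RNA per cell cannot be told apart. Ercc1 itself, by its brighter probe set, had signals of 79.9, 34.5 and 44.9 in deficient arrays, against 128, 244 and 176 in proficient arrays.

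The growth factor pathway is represented by Grb10, an adaptor that binds the insulin and IGF1 receptors and restrains their signalling, and by Igf2r, the receptor that takes IGF2 to lysosomes. Grb10 was read by 1 probe set, 1425458_a_at, at 473, 134 and 201 in deficient arrays, against 806, 245 and 388 in proficient arrays of litters 1, 2 and 3. The deficient array was lower in each litter, but the groups overlapped because the deficient cells of litter 1 were brighter than the proficient cells of litters 2 and 3. Within litters the ratio was 0.586, 0.547 and 0.518. The log2 difference of -0.78 (standard error 0.22) did not pass (limma with litter as a block, adjusted p = 0.116, range 0.0700 to 0.9998 over the alternatives). Of the 2 other Grb10 probe sets, 1430164_a_at read 30 on every array and 1425457_a_at was above it only in the deficient array of litter 1, at 34.5.

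For Igf2r the litters did not run one way. Probe set 1424111_at had signals of 108, 70.4 and 171 in deficient arrays, against 216, 106 and 139 in proficient arrays. The deficient array was lower in litters 1 and 2 and higher in litter 3, and 1424112_at showed the same pattern, with 30, 87.5 and 74.0 in deficient arrays against 65.8, 108 and 49.2 in proficient arrays. A probe set shared by Igf2r and its antisense transcript Airn was left out because it has several symbols, and it did not exceed 30.2 on any array.

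The cell cycle inhibitor gene Cdkn1c was near the floor throughout. Its single probe set was at 30 in all deficient arrays and at 41.0, 30 and 37.0 in proficient arrays, so no level can be compared in litter 2. Kcnq1ot1, the antisense RNA that silences Cdkn1c and neighbouring genes in cis, was above the floor by 4 of 6 probe sets. Its brightest, 1442029_at, had 317, 204 and 62.5 in deficient arrays, against 359, 204 and 165 in proficient arrays, and the deficient array was clearly lower only in litter 3. By 1457781_at the signals were 96.6, 156 and 89.9 in deficient arrays against 266, 153 and 195 in proficient arrays, lower in litters 1 and 3 and level in litter 2. By 1458161_at the signals were 262, 116 and 116 in deficient arrays against 286, 178 and 150 in proficient arrays, lower in each litter, and by 1441588_at 78.8, 46.5 and 30 in deficient arrays against 117, 30.3 and 38.3 in proficient arrays, with mixed directions. The other 2 Kcnq1ot1 probe sets read 30 throughout. The 4 mean log2 differences ran between -0.70 and -0.09, and none passed (limma with litter as a block). Kcnq1ot1 overlaps Kcnq1 on the other strand, and the sources used here do not say which strand its probe sets read.

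The non-coding RNA Meg3, expressed from the maternal copy of the Dlk1 domain, was above the floor in few arrays. Of its 11 probe sets 7 were at 30 on all arrays. Its brightest, 1452905_at, was at 30 in all deficient arrays and at 87.6, 81.4 and 30 in proficient arrays. Probe set 1429257_at was also at 30 in all deficient arrays, against 39.2, 77.3 and 32.6 in proficient arrays, without overlap, and 1439380_x_at left the floor only in the proficient array of litter 1, at 65.5. So no Meg3 probe set past the filter exceeded the floor in deficient cells, and proficient cells of litter 3 carried almost no Meg3 signal either. A single deficient array, that of litter 1, stood just above the floor by the dim 1428764_at, at 34.97. The log2 difference of 1452905_at was -0.62, with adjusted p = 0.171 (limma, litter blocked). Both of its litter 3 arrays were at the floor, so no level can be compared there.

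Sgce, which encodes epsilon-sarcoglycan and is expressed from the paternal copy, followed the same form at low signal. Probe set 1420688_a_at was at 30 in all deficient arrays, against 36.1, 78.3 and 30 in proficient arrays, so no level can be compared in litter 3. The second, 1443518_at, was above the floor only in the proficient array of litter 1, at 36.6.

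Gnas, which encodes the stimulatory G protein alpha subunit among several transcripts, was bright by 1450186_s_at, at 577, 1145 and 1249 in deficient arrays, against 691, 1561 and 1291 in proficient arrays. The deficient array was slightly lower in each litter, with ratios of 0.835, 0.734 and 0.967. A second Gnas probe set ran the other way: 1443375_at had 51.9, 83.8 and 45.2 in deficient arrays, against 34.5, 33.2 and 39.5 in proficient arrays, with no overlap between the groups. It is the only member probe set past the filter in which every deficient array exceeded its litter mate, with a log2 difference of 0.44 and a standard error of 0.19 (limma with litter as a block, adjusted p = 0.365). Gnas by 1453413_at left the floor only in litter 2, at 65.0 in the deficient and 69.1 in the proficient array, and the other 2 read 30 throughout. The Gnas locus makes several transcripts from separate promoters, and the sources used here do not say which of them each probe set reads.

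Ube3a, an E3 ubiquitin ligase that is imprinted in neurons and expressed from both copies elsewhere, and Impact, a regulator of the translation factor kinase GCN2, were clearly expressed. Ube3a by 1416680_at had 866, 775 and 1291 in deficient arrays, against 1439, 871 and 1259 in proficient arrays. Only litter 1 differed much, with a ratio of 0.602, against 0.890 and 1.03 in litters 2 and 3. Dimmer Ube3a probe sets ran without a common direction, with 126, 112 and 90.4 in deficient arrays against 168, 56.4 and 90.7 in proficient arrays by 1416682_at, and 65.1, 50.04 and 39.9 in deficient arrays against 30, 51.5 and 48.7 in proficient arrays by 1431224_at. Of its other 3 probe sets, 1416681_at reached 37.9 in 1 deficient array, 1445727_at reached 44.8 in 1 proficient array and 1425206_a_at read 30 throughout. Impact by 1446750_at had 690, 312 and 183 in deficient arrays, against 653, 333 and 334 in proficient arrays, so litter 3 alone differed, while 1415911_at had 166, 104 and 220 in deficient arrays against 266, 165 and 222 in proficient arrays and differed in litters 1 and 2. These Impact probe sets thus placed the difference in different litters, and 1446751_s_at stayed at or below 32.6.

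**Figure D2:**
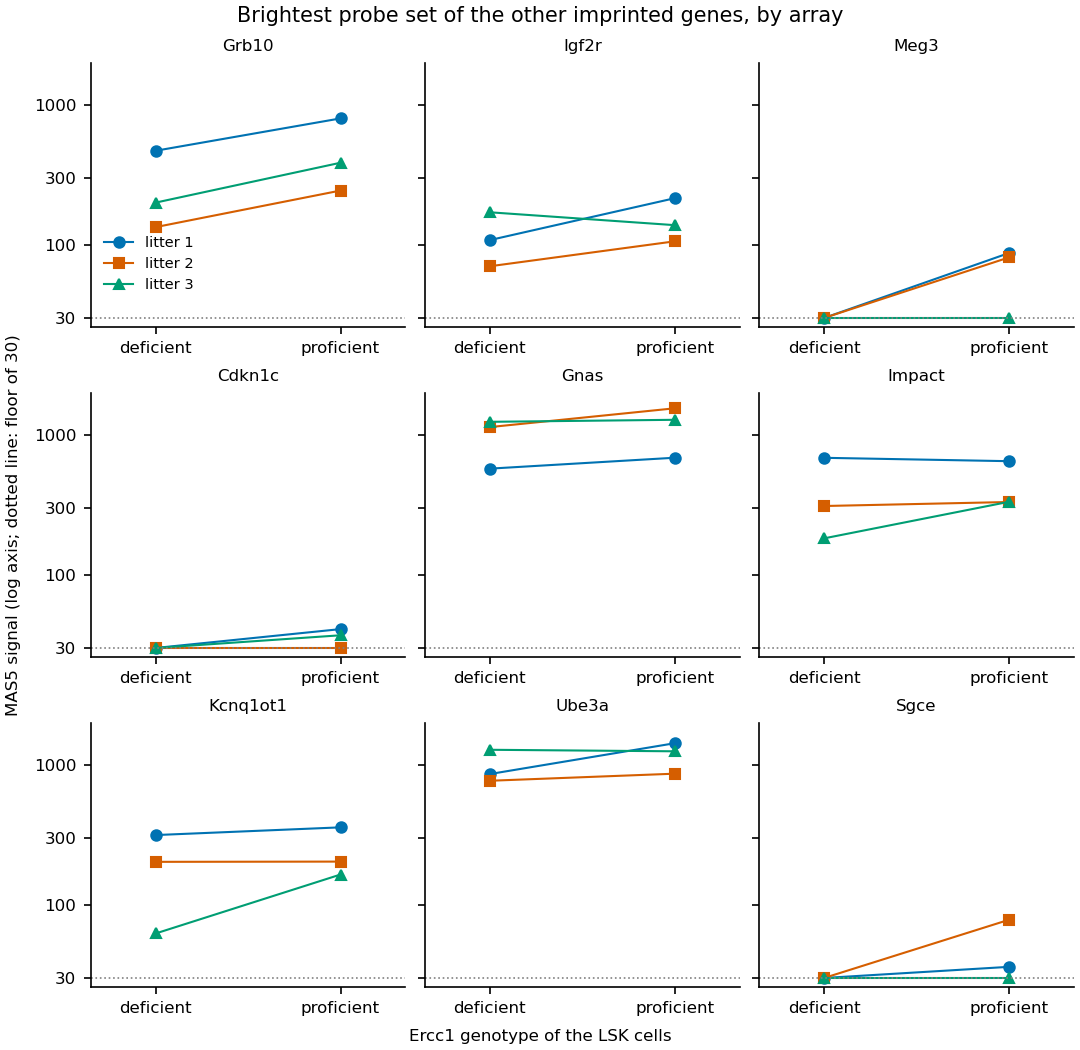
MAS5 signal on a log axis of the brightest probe set of the 9 other imprinted genes, in Ercc1-deficient cells (left) and Ercc1-proficient litter mates (right); lines join litters and the dotted line is the floor of 30. The 3 Grb10 lines run in parallel with litter 1 on top, while Meg3, Cdkn1c and Sgce lie at the floor in all deficient arrays.

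Across the 10 genes, the brightest probe set had a negative mean log2 difference in all 10, with a median of -0.33. Over the brightest probe sets of 10885 genes tested, 53.2% had a negative difference and the median was -0.02. Several members had to be lower to enter the fit, so this count supports nothing. Lower in the deficient array of all 3 litters were the brightest probe sets of 4 genes, Ndn, Grb10, Gnas and Kcnq1ot1, and for Kcnq1ot1 the difference in litter 2 was near 0. By any probe set past the filter 11 of 25 were lower in all 3 litters, against 17% of all probe sets tested, and 1 was higher, against 11.3%. All deficient arrays lay below all proficient arrays for 6 of the 25, namely 5 of Ndn and 1 of Meg3, against 4.89% of all probe sets tested, and above them for 1, of Gnas, against 2.3%. All deficient arrays were at the floor and all proficient arrays above it for 3 of the 25, again of Ndn and Meg3, against 0.528%. Ndn was selected on this contrast, and this Meg3 probe set could pass the filter only through its proficient arrays. These counts of probe sets thus support nothing either. With litter as a block, the called members were the 4 probe sets of Ndn, and no other of the 10 genes passed.

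Imprinted genes outside this set were examined through a list of 59 textbook imprinted genes, of which 51 had a probe set of their own. The list was written with earlier results of these data known, so its counts are given as a description. By their brightest probe sets 18 of the 51 read 30 on every array, among them Magel2, Mkrn3 and Snrpn next to Ndn, and Peg10 next to Sgce. The 932 probe sets with several symbols were not read here. A gene at the floor may therefore have signal by a probe set shared with another gene. Past the filter were 22, of which 17 had a negative difference, with a median of -0.13, against 53.2% and -0.02 over the brightest probe sets of all genes tested. With litter as a block 1 fell and 0 rose, against 0.52% and 0.315% of all probe sets tested.

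The gene that fell was Ppp1r9a, which encodes the actin-binding protein neurabin and lies in the Sgce cluster. The arrays do not read the parental copies apart. Whether Ppp1r9a, or any other listed gene, is imprinted in LSK cells was therefore not tested. It had signals of 564, 188 and 353 in deficient arrays, against 1385, 604 and 621 in proficient arrays. Every deficient array was below every proficient array, and the ratio within litters was 0.407, 0.312 and 0.568. The log2 difference of Ppp1r9a was -1.19, standard error 0.23 (limma with litter as a block, adjusted p = 0.0103). The call was lost without a litter term (0.9998), without a filter (0.942) and without litters 1 (0.718), 2 (0.687) or 3 (0.314). It was also lost when the probe sets of each gene were averaged, where 0 of these imprinted genes were called. Within the same cluster, Pon2 and Pon3, of the paraoxonase family, were lower in 2 of the 3 litters each and did not pass.

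In the Cdkn1c cluster, Tssc4, Nap1l4 and Tspan32 were lower in the deficient array of all 3 litters, and none passed. Nap1l4, a nucleosome assembly protein gene, had 477, 349 and 867 in deficient arrays, against 831, 618 and 947 in proficient arrays, with a log2 difference of -0.55 (limma with litter as a block, adjusted p = 0.341). Cd81, a tetraspanin gene and the brightest of the cluster, had 2392, 2134 and 1520 in deficient arrays, against 1973, 2118 and 1607 in proficient arrays, higher in litters 1 and 2 and lower in litter 3, so the groups overlapped. In the Ndn cluster the phospholipid transporter gene Atp10a alone passed the filter, at 521, 210 and 212 in deficient arrays, against 455, 412 and 272 in proficient arrays, higher in litter 1 and lower in litters 2 and 3. Igf2, Dlk1, Mest and Peg3, imprinted growth genes of the embryo, stayed at or below 45.7 on every array by their brightest probe sets. Elsewhere, Blcap and H13 were lower in all 3 litters without passing, and Blcap, at 99.8, 90.0 and 126 in deficient arrays against 150, 135 and 234 in proficient arrays, did not overlap.

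**Figure D3:**
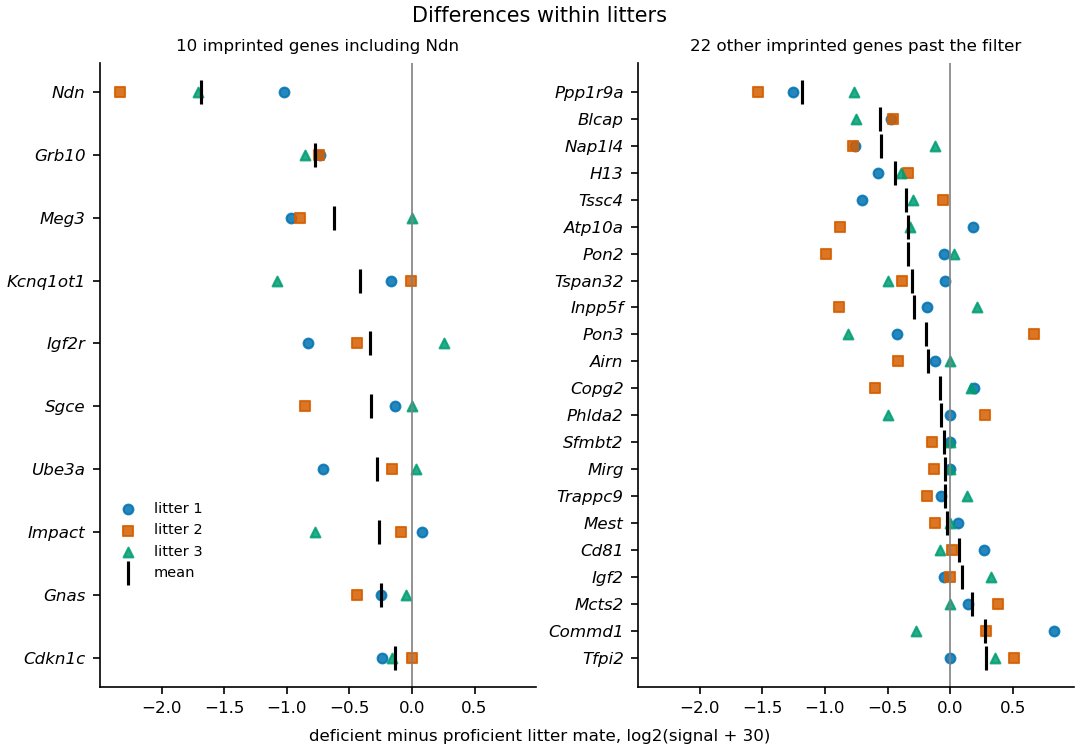
Difference between each Ercc1-deficient array and its proficient litter mate on the scale of log2(signal + 30), for the 10 imprinted genes including Ndn (left) and 22 other imprinted genes past the filter (right), each by its brightest probe set; symbols are litters and the bar is their mean. Ndn, at -1.69, and Ppp1r9a, at -1.19, have the lowest means of their panels.

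Genes that act with the members were followed through 4 short lists. Of 4 relatives of Ndn in the MAGE family, Maged1 alone passed the filter. It had signals of 30, 30.3 and 30 in deficient arrays, against 89.8, 75.3 and 46.0 in proficient arrays. Maged1 could thus pass the filter only through its proficient arrays and had to be lower. All its deficient arrays lay below all proficient arrays, against 4.89% of all probe sets tested. It was not called (limma with litter as a block, log2 difference -0.71, standard error 0.19, adjusted p = 0.0814). Of the Cip/Kip inhibitors related to Cdkn1c, Cdkn1a was higher in all 3 litters, at 135, 170 and 141 in deficient arrays, against 70.3, 86.8 and 67.3 in proficient arrays, with no overlap and adjusted p = 0.153 (limma, litter blocked). Cdkn1b had 1053, 355 and 787 in deficient arrays, against 1243, 207 and 829 in proficient arrays, without a common direction.

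Among receptors that Grb10 acts on, Igf1r had 260, 188 and 328 in deficient arrays, against 475, 194 and 247 in proficient arrays, and the insulin receptor gene Insr 202, 163 and 188 in deficient arrays, against 409, 224 and 179 in proficient arrays. Both were lower in litters 1 and 2 and higher in litter 3, and neither passed. Of 11 genes that set or keep imprints, 8 passed the filter and 0 were called in either direction by limma with litter as a block. Dnmt1, the maintenance DNA methyltransferase, had 9205, 5439 and 3921 in deficient arrays, against 4877, 5245 and 3427 in proficient arrays, and was far higher only in litter 1. Its recruiter Uhrf1 had 3740, 1419 and 2369 in deficient arrays, against 4040, 1429 and 1638 in proficient arrays. Zfp57, Dppa3 and Dnmt3l, known from oocytes and early embryos, were at the floor on all arrays.

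Differences between litters, averaged over both genotypes, were not used to choose the members and could be tested. In limma with genotype in the model, a moderated F test over the 3 litters called 7 of the 25 member probe sets past the filter, in 4 genes, which is 28% against 27.1% of all probe sets tested. The share of members called was thus close to that of the whole array. Grb10 had the largest spread between litters among them, with mean levels of 9.34, 7.73 and 8.28 on the scale of log2(signal + 30) in litters 1, 2 and 3 and an adjusted p of 0.00034. Litter 1, the older one, was highest in both genotypes. Measures of RNA and of other cells also moved with litter. The log2 signal of 18S rRNA was 7.26, 10.4 and 11.8 in deficient and 7.21, 9.51 and 11.2 in proficient arrays of litters 1, 2 and 3. The log2 ratio of the 3′ to the 5′ Gapdh control was 4.71, 2.43 and 2.30 in deficient and 3.64, 2.99 and 2.73 in proficient arrays. The summed granulocyte marker signal was 5820, 33404 and 88131 in deficient and 497, 6010 and 18749 in proficient arrays. Their part in the litter differences was not tested. Impact by 1446750_at (9.45, 8.46 and 8.12, adjusted p = 0.0028) and Kcnq1ot1 by 1442029_at (8.52, 7.87 and 7.07, adjusted p = 0.0032) were also highest in litter 1. Gnas by 1450186_s_at was lowest there, with levels of 9.37, 10.4 and 10.3 and an adjusted p of 0.0080. No Ndn probe set passed this test, and the adjusted p of its 5 probe sets past the filter ran between 0.249 and 0.892. For Grb10 the spread between litter means was 1.61 and the genotype difference was -0.78. For Ndn by 1437853_x_at the litter spread was 0.66, with the deficient array of litter 3 at the floor. Its genotype difference of -1.69 is the one it was selected on, so the 2 values are not weighed against each other.

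The genes whose pattern over the 6 arrays was most like that of Ndn were listed from 10884 other genes by Pearson's r with 1437853_x_at, as a description only, since the arrays share litters and genotypes. They were Tnfsf14 (r = 0.989), Itgb3 (0.989), Lrrc75a (0.984), 4930403D09Rik (0.983) and Cxxc5 (0.982). Itgb3, the integrin beta 3 chain, had signals of 55.7, 55.1 and 45.3 in deficient arrays, against 94.7, 120 and 89.8 in proficient arrays. Cxxc5, which encodes a zinc finger protein that binds CpG DNA, had 442, 381 and 360 in deficient arrays, against 497, 629 and 534 in proficient arrays. Among the members, r with Ndn was highest for Sgce (0.792) and Meg3 (0.730), both at 30 in every deficient array, and lowest for Ube3a (0.050) and Igf2r (0.096).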

How the data were processed

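The deposited values are MAS5 signals, intensity values on a linear scale with 1 array per sample. The submitters' processing notes name MAS5 without a version. Per the labels' protocols, linearly amplified RNA was put on Affymetrix arrays of the Mouse Genome 430 2.0 design. The values have a floor at 30, which held 52.3% to 58.6% of probe sets per array; the sources used here do not name the step that set it.

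Signals were taken as log2(signal + 30), which understates the changes of dim genes. Without the 64 controls, the 22519 probe sets whose mean reached the median were fitted with limma 3.58.1 in R 4.3.3 (lmFit, eBayes with a variance trend), with genotype and litter as terms and Benjamini-Hochberg adjustment at 0.05. Litter served as a block because the labels name litter mates; deviations of litter mates correlated with r = 0.77, 0.67 and 0.46, so the numbers pair the samples. Folds against a group at the floor are given only where every array of the brighter group was above it. They are lower bounds, taken from the brighter group's mean log2 signal less log2 of 30. Precision is limited by the number of arrays, 3 a group. Fits were tested on simulated data with normal noise and no floor, so that test does not cover signals near the floor.

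Names came from the platform annotation of 2016, which gave 34945 probe sets 1 symbol. Named were all members with every probe set, and from each other list the genes past the threshold or with 1 direction in all litters and a mean log2 difference of at least 1 in size, or else its 2 brightest; for Ndn, the 5 most like genes. Others named were chosen after their values were seen. The members and lists were chosen with earlier results of these data known. Markers of lymphocytes, megakaryocytes and erythroid cells were also summed, giving 132 to 192, 919 to 2207 and 672 to 1777 in deficient and 120 to 147, 315 to 1468 and 379 to 3230 in proficient arrays. Alternatives covered the litter term, filters, pseudocounts, normalization, variance trend, the probe set rule and leaving out litters.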

Additional observations from a re-analysis of the deposited data

How the results depend on the processing

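With litter as a replicate block, 188 probe sets were called by genotype and 1 other imprinted gene. Without the replicate block limma called 0 probe sets and 0 of these genes, with 579 probe sets at an unadjusted p under 0.05. Without a filter both counts were also 0, as was the count of probe sets called by litter (6113 with the filter); that fit holds 17046 probe sets at the floor on all arrays, which have no variance. Without a variance trend 114 probe sets were called by genotype. Leaving out litter 1, 2 or 3 with its replicate number gave 0 probe sets and 0 genes each time (range 0 to 0), with 1 residual degree of freedom; dropping 1 array drops its litter from the paired contrast. When the probe sets of a gene were averaged, 0 other imprinted genes were called, so Ppp1r9a was lost. Beyond the fewer samples and the probe sets without variance, the cause of these changes was not tested. Under a stricter filter, other pseudocounts, quantile normalization and a filter for probe sets above the floor on at least 3 arrays, chosen after seeing the data, each of these counts stayed within 1.5 times. Ndn kept 4 called probe sets under each of these and without the variance trend. The log2 difference of the brightest Ndn probe set ran between -2.26 and -1.11 over all alternatives, and that of Grb10 between -0.86 and -0.64. The brightest probe set of each of the 10 genes kept a negative difference in every alternative that tested it, but this count supports nothing. Meg3, Cdkn1c and Sgce had every deficient array at the floor and could hardly rise, and Ndn was selected on this contrast. The difference of Impact came to -0.005 without litter 3, and that of Ube3a to -0.06 without litter 1.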
